A study of Homo sapiens with 20 samples.

Results

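U2OS cells that had met one of 2 stresses, hypoxia or tunicamycin, were set against each other directly. The comparison used 8 of the 20 arrays of the study, 4 per stress, and no control array. U2OS is an established human osteosarcoma line, grown in DMEM with 10% FCS. The hypoxia arrays came from cells held below 0.1% oxygen for 3 hr, and the tunicamycin arrays from cells given 2.5 ug/ml tunicamycin for 3 hr. The 0 hr arrays of both stresses received no DRB. For the other 3 pairs transcription was then blocked with 100 ug/ml DRB, an inhibitor of RNA polymerase II elongation, for 1.5, 3 or 4.5 hr. The labels do not say whether the stress went on during DRB. Each stress and time has 1 array, so hypoxia and tunicamycin arrays of the same DRB time formed 4 pairs. Nothing in the labels says that the arrays came from separate cultures, and whatever set the cultures or hybridizations of the stresses apart cannot be told apart from the stress itself.

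Low oxygen stops the prolyl hydroxylases that mark the HIF alpha subunits for degradation, and HIF then activates genes for glucose use, mitochondrial restraint and blood supply. Tunicamycin blocks the first step of N-linked glycosylation, so unfolded proteins build up in the endoplasmic reticulum (ER) and the sensors IRE1, ATF6 and PERK start the unfolded protein response. Both stresses can lead to phosphorylation of eIF2alpha, which slows translation and favours translation of ATF4, the activator of the integrated stress response. The direct comparison therefore shows where the mRNA levels of the 2 stresses part. Only the 0 hr arrays show levels before DRB. A mean over all DRB times mixes the level after stress with what was lost or regained later. A difference that fails the test does not show that levels lie close together. In simulated data the fit recovered 53 of 100 true differences of 0.5 log2 units.

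Below, levels are log2 signals from 1 probe set per gene, and 4 values in a row follow the DRB times from 0 to 4.5 hr. A difference is hypoxia minus tunicamycin on the log2 scale, given as the mean ± SD of the 4 paired differences (n = 4), where 1 unit is a 2-fold difference. A gene is called when limma's adjusted p, over 14524 genes tested, is below 0.05, and "higher" or "lower" without further words means called in that direction. By this rule 4495 genes (30.9%) differed, 2246 (15.5%) higher and 2249 (15.5%) lower in hypoxia. Of the called genes, 187 were higher and 265 lower by over 1 log2 unit. Arrays of the 2 stresses did not overlap for 3204 genes (22.1%). Without the 1.5, 3 or 4.5 hr pair the called total was 2472, 2010 or 2847. The gap widened with time after DRB: 248 genes were over 1 unit apart at 0 hr, 475 at 1.5 hr, 794 at 3 hr and 1031 at 4.5 hr.

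The signal near the 3' end of ACTB stood above that near its 5' end by 2.04 ± 0.13 log2 units on the hypoxia arrays and by 0.54 ± 0.11 on the tunicamycin arrays (SD, n = 4 each), while for GAPDH the values were 0.15 ± 0.04 in hypoxia and 0.00 ± 0.04 in tunicamycin. This sign of RNA or amplification quality differed with the stress, and its part in the differences below was not tested. Of 2489 called genes with more than 1 probe set above the filter, 732 (29.4%) had probe sets of both signs; among 237 such genes called by over 1 unit it was 25 (10.5%). Among the called genes named below, probe sets of both signs occurred for ALDH18A1, ATF5, CITED2, CREB3L1, EIF2S1, HK2, LOX, MBTPS1, PGK1, SQLE and XBP1. Of 8 mesenchymal markers, 6 lay above the filter, with COL1A2 and TWIST1 below it, and their summed intensity was 31921 to 36192 in hypoxia and 29942 to 32344 in tunicamycin. Of the other markers, EPCAM (1 of 4 epithelial), PECAM1, VWF and TEK (3 of 4 endothelial), CD3E (1 of 3 haematopoietic) and TTR (1 of 3 hepatocyte) lay above the filter. EPCAM read 8.11 to 8.90 in hypoxia and 7.55 to 8.12 in tunicamycin, and its part in the results was not tested.

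Some glucose transporters and glycolytic genes were higher in hypoxia. Of 20 tested members 8 were higher in hypoxia and none lower, with a median difference of 0.21 against -0.01 over all genes. PFKFB4, which makes the fructose 2,6-bisphosphate that speeds glycolysis, read 10.85, 9.67, 9.93 and 9.93 in hypoxia, against 7.80, 6.47, 6.87 and 6.50 in tunicamycin. Its hypoxia arrays all lay far above its tunicamycin arrays, by 3.18 ± 0.18 (adjusted p = 3.16e-05), a 9.09-fold gap, although a second probe set for the gene differed by only 0.30. SLC2A3, the high-affinity glucose transporter GLUT3, read 12.15, 11.68, 11.76 and 11.77 in hypoxia, against 9.75, 8.35, 8.12 and 7.99 in tunicamycin. The groups stood apart at every time, and the difference of 3.29 ± 0.62 (adjusted p = 0.000404) came with a drop after 0 hr in tunicamycin. For SLC2A1, the widely expressed transporter GLUT1, the arrays gave 10.22, 10.19, 10.80 and 10.98 in hypoxia, against 8.86, 8.62, 8.72 and 8.33 in tunicamycin.

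SLC2A1 thus stayed higher in every hypoxia array, by 1.91 ± 0.58 (adjusted p = 0.00151). Hexokinase 2 (HK2), the first enzyme of the pathway, differed by 1.48 ± 0.29, and ENO2, an enolase, by 1.27 ± 0.10, each without overlap of the arrays. With the median of its probe sets in place of the brightest, HK2 differed by -0.26. ALDOC, an aldolase, differed by 0.71 ± 0.23 and PGK1, which makes ATP, by 0.42 ± 0.04. LDHA, the lactate dehydrogenase subunit, differed by 0.27 ± 0.06, and its call was lost without any 1 of the 4 pairs (adjusted p 0.069 to 0.128). The other 12 members of the list, measured and not called, lay between -0.03 and 0.24.

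Genes that hold back the mitochondria were also higher in hypoxia, 6 of 10 with a median of 0.57 and none lower. PDK1, the kinase that switches off pyruvate dehydrogenase, read 10.42, 10.03, 9.93 and 9.90 in hypoxia, against 8.27, 8.01, 7.58 and 7.96 in tunicamycin. The separation was 2.12 ± 0.18 (adjusted p = 0.000106), or 4.34-fold, and was nearly the same at each time. BNIP3, a receptor that marks mitochondria for autophagy, read 11.97, 11.45, 11.65 and 11.76 in hypoxia, against 10.04, 9.91, 10.02 and 10.13 in tunicamycin, and its relative BNIP3L read 11.08, 10.94, 11.13 and 11.37 in hypoxia, against 10.03, 9.69, 9.66 and 9.88 in tunicamycin. Both were higher in all hypoxia arrays, by 1.68 ± 0.17 and 1.31 ± 0.20. FAM162A, a mitochondrial protein linked to cell death, differed by 0.99 ± 0.12, PDK3 by 0.69 ± 0.32 and the matrix protease LONP1 by 0.46 ± 0.07.

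The oxygen sensing list, which also holds HIF subunits and CITED2, followed this pattern in part, with 4 of 10 members higher. EGLN1, the main HIF prolyl hydroxylase, read 11.15, 11.05, 11.17 and 11.18 in hypoxia, against 9.15, 9.24, 8.79 and 8.88 in tunicamycin. Its arrays changed little in time under either stress and differed by 2.12 ± 0.27 (adjusted p = 0.00023). EGLN3, another HIF hydroxylase, read 6.80, 6.27, 6.58 and 6.0 in hypoxia, against 6.57, 5.32, 5.59 and 5.33 in tunicamycin, so the groups overlapped, and its difference of 0.71 ± 0.35 was no longer called without the 3 hr pair (adjusted p = 0.0511). EPAS1, which encodes HIF-2alpha, was higher by 0.55 ± 0.06. CITED2, which competes with HIF for its coactivator p300, differed by 1.25 ± 1.0, a call lost without the 1.5 hr pair (adjusted p = 0.0981), and another of its probe sets gave -0.17. The CITED2 gap shrank from 2.365 at 0 hr to 0.37 at 4.5 hr. Its tunicamycin array at 4.5 hr, at 4.68, lay below the filter's 4.72, so the gap at that time is poorly measured. Among 15 histone demethylases, oxygen-dependent enzymes of chromatin, 3 were higher and 2 lower, near the 15.5% of all genes in each direction. KDM3A, which acts on histone H3 lysine 9, led with 1.54 ± 0.22, KDM4B had 0.68 ± 0.29 and KDM2B 0.53 ± 0.16, whereas KDM4A had -0.51 ± 0.15 and KDM7A -0.65 ± 0.28. Without the 0 or the 1.5 hr pair 5 demethylases were higher.

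**Figure D1:**
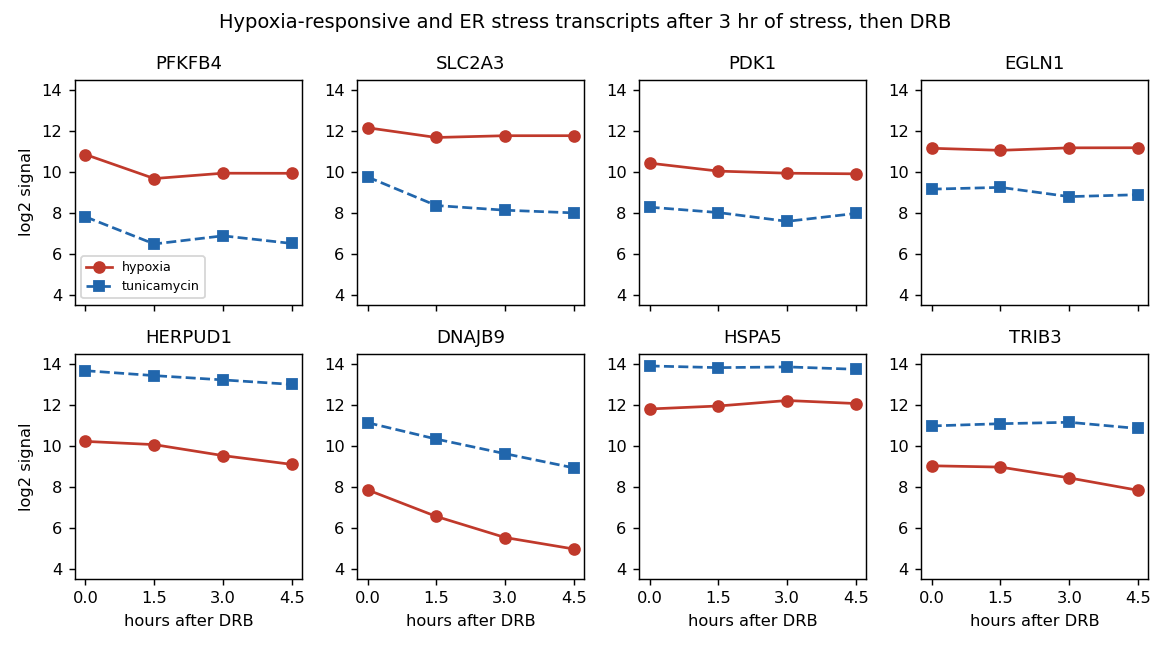
Log2 signal against hours after DRB for 4 hypoxia-responsive genes (top) and 4 ER stress genes (bottom), with hypoxia arrays as red circles and tunicamycin arrays as blue squares, 1 array per point. PFKFB4, SLC2A3, PDK1 and EGLN1 lay higher in hypoxia at all 4 times, and HERPUD1, DNAJB9, HSPA5 and TRIB3 lay lower.

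Secreted and surface products were mostly higher in hypoxia. Of 16 tested members 12 were higher and 1 lower, with a median of 0.61. ADM, the vasodilator peptide adrenomedullin, read 12.06, 8.85, 7.80 and 8.28 in hypoxia, against 8.41, 5.27, 4.76 and 4.40 in tunicamycin. Its signal fell steeply under both stresses, so the groups overlapped across times. Yet the paired difference stayed near 3.53 ± 0.35 (adjusted p = 7.7e-05), an 11.6-fold gap. In tunicamycin ADM lay close to the filter's 4.72 at 3 hr and below it at 4.5 hr. The size of the ADM gap at these times is therefore poorly measured. STC1, the secreted glycoprotein stanniocalcin-1, read 9.93, 8.57, 8.97 and 9.08 in hypoxia, against 6.80, 5.99, 6.01 and 5.83 in tunicamycin, with no overlap and a difference of 2.98 ± 0.29 (adjusted p = 8.9e-05).

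Enzymes of the collagen matrix were higher as well: LOX, which crosslinks collagen, differed by 1.36 ± 0.24 (another of its probe sets gave -0.41), P4HA1 and P4HA2, collagen prolyl hydroxylase subunits, by 1.46 ± 0.52 and 0.80 ± 0.30, and PLOD2, a lysyl hydroxylase, by 0.94 ± 0.20. CA12, a carbonic anhydrase of the cell surface, differed by 1.58 ± 0.62, and its 7 probe sets above the filter ranged from 0.05 to 2.03. VEGFA, the angiogenic growth factor, lay much closer, with 10.95, 10.78, 9.78 and 9.66 in hypoxia, against 10.70, 10.02, 9.40 and 9.0 in tunicamycin. The arrays overlapped, the difference was 0.51 ± 0.24 (adjusted p = 0.0121), and without the 1.5 hr pair it was 0.43 and not called (adjusted p = 0.0579). EDN1, the vasoconstrictor endothelin-1, was the member lower in hypoxia, at -0.50 ± 0.29, a call lost without the 1.5, 3 or 4.5 hr pair (adjusted p 0.071 to 0.0849).

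Glycogen genes formed another block, with 7 of 9 higher, none lower and a median of 0.57. PPP1R3B and PPP1R3C, which bring protein phosphatase 1 to glycogen, differed by 1.43 ± 0.47 and 1.65 ± 1.06. PPP1R3E, of the same family, differed by 0.87 ± 0.20. After 0 hr PPP1R3B read 4.46, 4.17 and 4.26 in tunicamycin, below the filter's 4.72, so its low side is poorly measured. GBE1, the branching enzyme, differed by 0.69 ± 0.18, GYS1, the muscle-type glycogen synthase, by 0.56 ± 0.18, and PGM1, which interconverts glucose phosphates, by 0.57 ± 0.09. Of 11 further HIF targets 9 were higher and none lower, with a median of 1.01. They include HILPDA, a lipid droplet protein, at 1.88 ± 0.43, BHLHE41, a transcriptional repressor, at 1.56 ± 0.15, ZNF395 at 1.04 ± 0.12 and NDRG1 at 0.69 ± 0.15. ANKRD37, an ankyrin repeat protein named after its values were seen, read 9.76, 8.40, 7.50 and 7.12 in hypoxia, against 7.27, 6.15, 6.13 and 6.32 in tunicamycin, so its difference of 1.73 ± 0.78 shrank over the DRB course.

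HIF binds a short DNA core, ACGTG, and 2 promoters from these lists are shown because both genes lay higher in every hypoxia array and both windows hold it. The windows run from 250 bases before to 50 bases after the RefSeq gene start (GRCh38.p14), 5' to 3' on the gene's strand, with the core in capitals. BNIP3 lies at chr10:131981874-131982173 on the minus strand, where the core on both strands overlaps in 1 palindrome, and ENO2 at chr12:6914330-6914629 on the plus strand.
BNIP3: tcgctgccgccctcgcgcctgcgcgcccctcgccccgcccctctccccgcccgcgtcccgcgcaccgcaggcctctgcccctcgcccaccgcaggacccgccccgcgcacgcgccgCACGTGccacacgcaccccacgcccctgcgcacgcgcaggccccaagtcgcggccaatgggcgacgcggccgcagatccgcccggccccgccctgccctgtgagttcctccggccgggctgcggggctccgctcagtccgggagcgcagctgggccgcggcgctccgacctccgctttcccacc
ENO2: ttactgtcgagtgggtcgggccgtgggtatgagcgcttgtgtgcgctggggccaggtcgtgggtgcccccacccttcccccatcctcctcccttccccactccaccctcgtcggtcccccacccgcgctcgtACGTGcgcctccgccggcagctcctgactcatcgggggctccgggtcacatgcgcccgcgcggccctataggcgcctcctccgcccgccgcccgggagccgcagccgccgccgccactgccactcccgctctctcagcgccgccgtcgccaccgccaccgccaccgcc
Searched on both strands, ACGTG was present in 34 of 77 promoters of the hypoxia lists (44.2%) and in 25.6% of the 11556 promoters of tested genes. List members with the core had a median difference of 0.68, and the 43 members without it 0.20. The core was as frequent in ER chaperone promoters, 9 of 20 (45.0%), from a list with no member called higher in hypoxia. ER translocation and exit had it in 12 of 17 promoters (70.6%), N-glycan assembly in 8 of 13 (61.5%). ER-associated degradation had it in 8 of 14 (57.1%). Over all lists the share ran from 9.1% (proteasome) to 85.7% (other HIF targets). The core was thus not particular to the hypoxia lists, and it also stood at HERPUD1, DNAJB9 and XBP1. A match is a description of letters in this window and shows no binding.

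Genes of sterol and fatty acid synthesis, which lie outside the HIF lists, also parted: 9 of 17 were higher in hypoxia and 3 lower, with a median of 0.35. INSIG1, the ER anchor that holds the sterol-sensing SCAP-SREBP complex back, read 9.11, 9.08, 8.23 and 7.83 in hypoxia, against 7.10, 6.61, 5.09 and 4.85 in tunicamycin. All hypoxia arrays were above all tunicamycin arrays, by 2.65 ± 0.51 (adjusted p = 0.000438). INSIG2, its paralogue, read 9.48, 8.40, 8.75 and 8.54 in hypoxia, against 7.20, 6.87, 6.62 and 6.73 in tunicamycin and differed by 1.94 ± 0.34, and SCD, the stearoyl-CoA desaturase, by 1.32 ± 0.16. Of the synthesis enzymes proper, SQLE (squalene epoxidase, 0.67 ± 0.24) and DHCR7 (the last step to cholesterol, 0.57 ± 0.21) were higher, but MVD (mevalonate decarboxylase, -0.47 ± 0.11) and HMGCS1 (HMG-CoA synthase, -0.45 ± 0.21) were lower. Without the 3 hr pair 5 members were higher and 1 was lower, and HMGCS1 was not called (adjusted p = 0.0612).

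On the ER side, chaperones and folding enzymes split into 10 of 22 members that were lower in hypoxia and 12 that were not called, with none higher (1 without the 0 hr pair) and a median of -0.28. DNAJB9 (ERdj4), a co-chaperone that helps dispose of misfolded protein, read 7.85, 6.55, 5.52 and 4.96 in hypoxia, against 11.13, 10.33, 9.62 and 8.92 in tunicamycin. The tunicamycin arrays fell with time yet each stayed above its hypoxia pair by 3 units or more, a difference of -3.78 ± 0.36 (adjusted p = 7.45e-05) or 13.8-fold. HSPA5, the central ER chaperone BiP, read 11.80, 11.95, 12.21 and 12.07 in hypoxia, against 13.90, 13.82, 13.86 and 13.74 in tunicamycin. The tunicamycin arrays were flat in time and all above the hypoxia arrays, and hypoxia was lower by 3.54-fold, with a difference of -1.82 ± 0.21 (adjusted p = 0.000242).

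Further co-chaperones moved the same way, SDF2L1 by -1.50 ± 0.06, DNAJC3 (p58IPK) by -1.57 ± 0.11, DNAJB11 by -1.04 ± 0.13 and the secreted ER factor MANF by -1.25 ± 0.18. ERO1B, a thiol oxidase, was lower, at -1.08 ± 0.22, while its paralogue ERO1A, listed as a HIF target, was higher by 0.64 ± 0.15. HYOU1 differed by -0.81 ± 0.32, CRELD2 by -1.0 ± 0.23 and HSP90B1 (GRP94) by -0.56 ± 0.25, the last not called without the 3 hr pair (adjusted p = 0.0542). The list's median paired difference was -0.66 at 0 hr and -0.01 at 4.5 hr.

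Factors of ER-associated degradation, which take misfolded proteins to the proteasome, were lower for 4 of 16 members and higher for none, and their median of 0.02 (-0.02 after centring each array on its ribosomal protein genes) was near that of all genes. HERPUD1, which organises the ubiquitin ligase at the ER membrane, read 10.22, 10.06, 9.52 and 9.09 in hypoxia, against 13.67, 13.43, 13.22 and 13.0 in tunicamycin. The groups lay over 3 units apart at each time, at -3.61 ± 0.24 (adjusted p = 3.16e-05) or 12.2-fold, while a second probe set gave -0.75. DERL2, a channel component, differed by -0.89 ± 0.14, SEL1L, the ligase adaptor, by -0.62 ± 0.24 and SELENOS by -0.60 ± 0.17. Without the 0 hr pair 3 members were higher and 5 lower.

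Among the ER stress sensors and the factors listed with them 3 were higher and 3 lower of 10. XBP1, whose mRNA the sensor IRE1 splices, read 8.02, 7.04, 5.75 and 5.55 in hypoxia, against 10.17, 10.17, 9.69 and 9.58 in tunicamycin. The gap was wider at later times, with a mean of -3.31 ± 0.87 (adjusted p = 0.000995), yet a second XBP1 probe set differed by 0.58 in the other direction, so the level of the gene depends on the probe set. EIF2AK3, the sensor kinase PERK, differed by -0.83 ± 0.60, a call lost without the 1.5 or 3 hr pair (adjusted p = 0.0705 and 0.0675). The 3 list members higher in hypoxia, CREB3L1, MBTPS1 and MBTPS2, differed by 0.25 to 0.48 and were not called without the 1.5, 3 or 4.5 hr pair. They were named after their values were seen. Among the lower ones, CREB3L2 differed by -0.41 ± 0.20 and lost its call without the 3 hr pair (adjusted p = 0.076). XBP1, by the probe set used, was therefore the only member of this list called in the fit with all pairs and in each fit that left out 1 pair.

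The 2 lists of the glycan and secretory route showed no common direction. In N-glycan assembly, the pathway that tunicamycin blocks, 3 of 15 were higher and 5 lower, with a median of 0.07. ALG2, a mannosyltransferase, was lower, at -0.85 ± 0.19, and so was UAP1, which makes the sugar donor UDP-GlcNAc, at -0.64 ± 0.12. DAD1, a subunit of oligosaccharyltransferase, was higher by 0.46 ± 0.14, a call lost without the 3 hr pair (adjusted p = 0.0501). Higher and lower counts were 1 and 3 without the 1.5 hr pair, 0 and 3 without the 3 hr pair, and 2 and 2 without the 4.5 hr pair. For translocation and exit from the ER, 6 of 20 were higher and 3 lower, and these counts were 1 and 1 without the 1.5 or the 3 hr pair and 3 and 1 without the 4.5 hr pair. SEC23B, a COPII coat protein, was lower, at -0.95 ± 0.17, and KDELR3, a receptor that returns proteins to the ER, higher by 0.67 ± 0.17.

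The classical ER stress element, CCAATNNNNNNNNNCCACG, recruits ATF6 with NF-Y, and 2 promoters that hold it are shown because their genes, by the probe sets used, were lower in hypoxia at all 4 times. They are HSPA5 at chr9:125241294-125241593 and XBP1 at chr22:28800520-28800819, both on the minus strand, with the fixed letters of the element in capitals.
HSPA5: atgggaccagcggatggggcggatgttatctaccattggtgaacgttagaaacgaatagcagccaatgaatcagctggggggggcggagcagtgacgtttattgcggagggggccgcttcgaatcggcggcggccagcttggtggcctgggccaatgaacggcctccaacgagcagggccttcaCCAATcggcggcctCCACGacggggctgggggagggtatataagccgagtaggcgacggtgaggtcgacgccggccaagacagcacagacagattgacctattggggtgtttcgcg
XBP1: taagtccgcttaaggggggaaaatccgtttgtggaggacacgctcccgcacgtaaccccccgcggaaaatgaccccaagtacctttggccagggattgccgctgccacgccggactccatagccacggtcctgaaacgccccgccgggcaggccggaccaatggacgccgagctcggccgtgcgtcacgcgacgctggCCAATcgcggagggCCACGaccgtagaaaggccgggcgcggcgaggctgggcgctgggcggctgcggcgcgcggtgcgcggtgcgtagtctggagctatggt
Over both strands, the element was found in 14 of 11556 promoters of tested genes (0.1%). It stood in 6 of 20 promoters of the chaperone list (30.0%), those of HSPA5, HSP90B1, CRELD2, ERO1B, CALR and CANX. The 6 genes had a median difference of -0.78 and a range of -1.82 to 0.17. The 14 without it had a median of -0.23 and a range of -3.78 to 0.35, and DNAJB9, at the lower end, was among them.

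**Figure D2:**
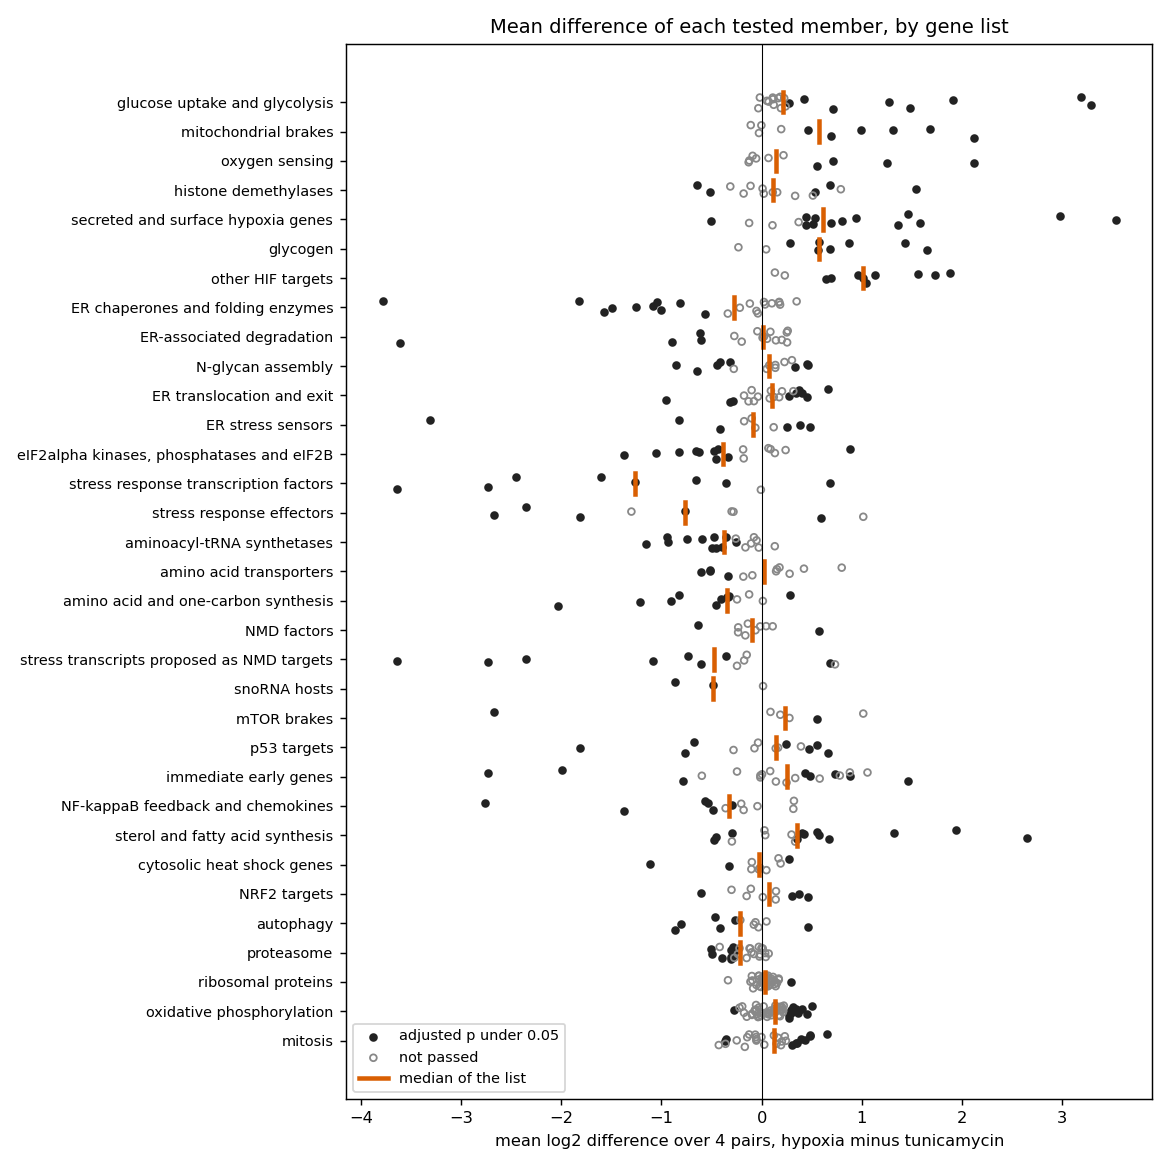
Mean log2 difference over the 4 pairs, hypoxia minus tunicamycin, for each tested member of 33 gene lists; filled points passed limma's adjusted p of 0.05, open points did not, and orange bars are list medians. The hypoxia lists at the top reach 3.53, the ER and stress response lists reach -3.78, and ribosomal proteins lie between -0.34 and 0.29.

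Most transcription factors of the integrated stress response were lower in hypoxia. Of 9 members of the stress response transcription factor list, which also holds TRIB3, 7 were lower and 1 higher, with a median of -1.27. ATF4 itself differed little, with 12.91, 12.92, 12.73 and 12.76 in hypoxia, against 13.32, 13.29, 13.11 and 12.99 in tunicamycin. Its hypoxia arrays were all below its tunicamycin arrays, with a small difference of -0.35 ± 0.08 (adjusted p = 0.0142), a call lost without the 1.5 or the 3 hr pair (adjusted p = 0.0735 and 0.0689). DDIT3 (CHOP), a pro-apoptotic partner of ATF4, read 7.50, 6.78, 7.05 and 7.67 in hypoxia, against 11.96, 11.66, 10.70 and 9.22 in tunicamycin.

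DDIT3 was lower, at -3.64 ± 1.48 (adjusted p = 0.00302); the gap was -4.47 at 0 hr and -1.56 at 4.5 hr, and the mean without the 4.5 hr pair was -4.33. ATF3, a stress-induced repressor and activator, read 9.39, 8.32, 6.90 and 7.49 in hypoxia, against 11.11, 11.0, 10.60 and 10.33 in tunicamycin. Its gap was -1.72 at 0 hr and -3.70 at 3 hr, with a mean of -2.74 ± 0.81 (adjusted p = 0.00137). The 3 ATF3 probe sets above the filter ranged from -2.76 to -0.30, so the size of its gap depends on the probe set. TRIB3, a pseudokinase that feeds back on the response, read 9.02, 8.96, 8.43 and 7.83 in hypoxia, against 10.97, 11.08, 11.15 and 10.85 in tunicamycin and differed by -2.45 ± 0.50 (adjusted p = 0.000598), or 5.47-fold. The bZIP partners CEBPB and CEBPG were lower, at -1.60 ± 0.23 and -1.27 ± 0.43, as was NUPR1, a stress-induced chromatin protein, at -0.66 ± 0.07. ATF5, another eIF2alpha-controlled factor, was the 1 member higher in hypoxia, at 0.68 ± 0.34, and was not called without the 3 hr pair (adjusted p = 0.0532). Its 4 probe sets ranged from -0.15 to 0.69, and with their median ATF5 differed by 0.29 and was not called (adjusted p = 0.0594).

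Of the eIF2alpha axis, 9 of 16 members were lower and 1 higher, with a median of -0.38. Without the 1.5, 3 or 4.5 hr pair 7, 6 or 8 were lower and none was higher. The kinases other than PERK were not called: EIF2AK1 (HRI) differed by 0.09 ± 0.06, EIF2AK2 (PKR) by 0.24 ± 0.20 and EIF2AK4 (GCN2) by 0.07 ± 0.18. PPP1R15A (GADD34), the stress-induced subunit that leads phosphatase to eIF2alpha, read 7.19, 6.12, 6.38 and 6.84 in hypoxia, against 8.79, 8.31, 7.52 and 7.41 in tunicamycin. The difference was -1.38 ± 0.69 (adjusted p = 0.00648), with the smallest gap at 4.5 hr. PPP1R15B (CReP), its constitutive counterpart, read 9.98, 9.63, 8.18 and 8.23 in hypoxia, against 10.15, 8.71, 7.14 and 6.50 in tunicamycin.

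PPP1R15B thus ran the other way, at 0.88 ± 0.78 (adjusted p = 0.0427), with near-equal arrays at 0 hr; the call was lost without the 1.5, 3 or 4.5 hr pair (adjusted p 0.11 to 0.154). NCK1, an adaptor that binds eIF2 and PERK, was lower, at -1.06 ± 0.37. Subunits of eIF2B, the exchange factor that phosphorylated eIF2alpha inhibits, were lower too: EIF2B2 at -0.46 ± 0.09, EIF2B3 at -0.63 ± 0.17 and EIF2B4 at -0.47 ± 0.15. EIF2S2, the beta subunit of eIF2, was lower, at -0.66 ± 0.21. EIF2S1, which encodes eIF2alpha, was lower, at -0.43 ± 0.12, and not called without the 3 hr pair (adjusted p = 0.0512).

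**Figure D3:**
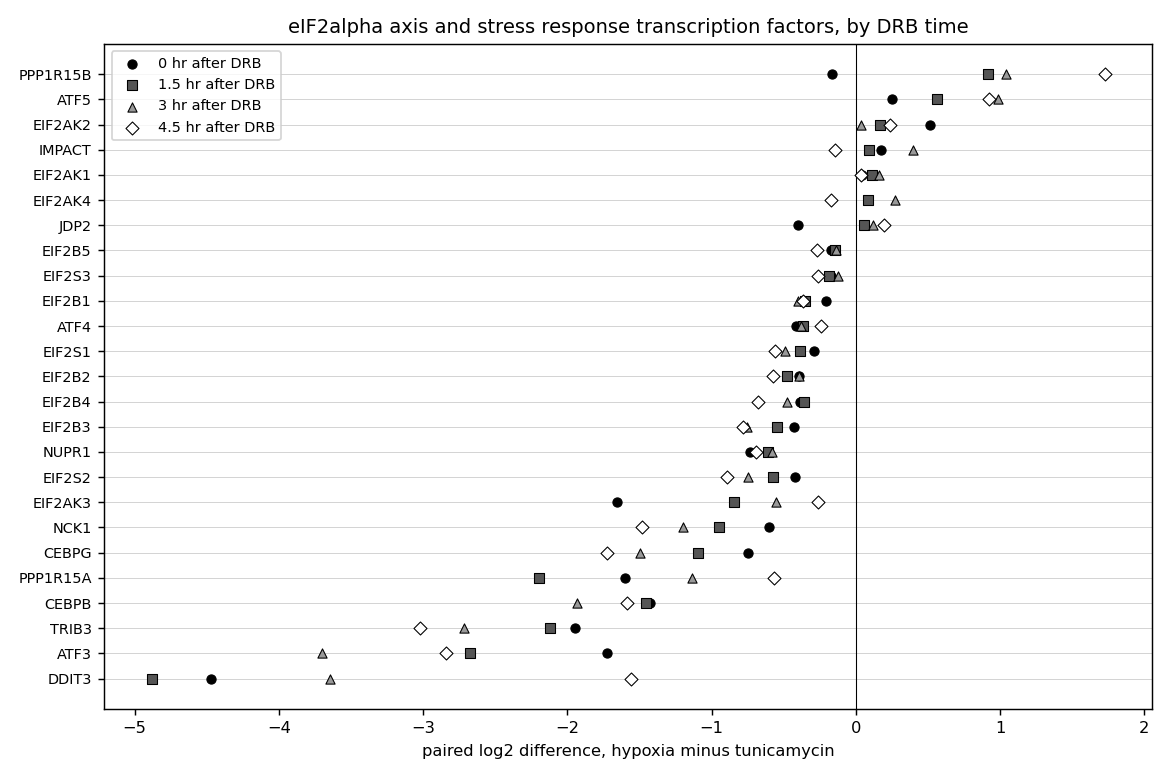
Paired log2 differences, hypoxia minus tunicamycin, with 1 symbol per DRB time and genes in order of their mean. Shown are the eIF2alpha axis and the stress response transcription factor list, which also holds TRIB3. PPP1R15B and ATF5 lie right of 0 on average (0.88 and 0.68), the kinases EIF2AK1, EIF2AK2 and EIF2AK4 near 0, and DDIT3 spans -4.88 to -1.56.

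The effectors downstream divided in time. Of 9 tested 4 were lower and 1 higher, with a median paired difference of -1.09 at 0 hr and -0.01 at 4.5 hr. GADD45A, a growth arrest protein, read 11.82, 10.44, 9.88 and 10.12 in hypoxia, against 13.18, 13.06, 12.71 and 12.73 in tunicamycin and was lower, at -2.35 ± 0.68 (adjusted p = 0.00128). Its gap was -1.35 at 0 hr and -2.61 at 4.5 hr. PMAIP1 (NOXA), a BH3-only death protein, was lower, at -1.82 ± 0.35, and so was the death receptor TNFRSF10B (DR5), at -0.77 ± 0.24. SESN2, a brake on mTORC1, read 7.09, 6.68, 6.01 and 6.22 in hypoxia, against 11.26, 10.31, 7.84 and 7.29 in tunicamycin; its gap of -4.17 at 0 hr narrowed to -1.07 at 4.5 hr.

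CHAC1, which degrades glutathione, read 6.24, 5.75, 5.97 and 5.70 in hypoxia, against 9.84, 7.61, 5.97 and 5.45 in tunicamycin, so that the arrays met from 3 hr on, and its mean of -1.30 ± 1.80 was not called (adjusted p = 0.138). CLGN, a testis-type ER chaperone, was the member higher in hypoxia, at 0.59 ± 0.18. DDIT4 (REDD1), an mTORC1 inhibitor known to respond to both stresses, read 12.49, 9.70, 8.55 and 8.57 in hypoxia, against 12.43, 9.93, 6.81 and 6.08 in tunicamycin. The stresses lay 0.06 apart at 0 hr and 2.50 apart at 4.5 hr, and the mean of 1.01 ± 1.32 was not called (adjusted p = 0.119). GADD45B, an early stress gene of the GADD45 family, read 10.24, 7.74, 8.25 and 8.88 in hypoxia, against 10.68, 8.62, 6.73 and 6.14 in tunicamycin, with groups that overlapped and a mean of 0.73 ± 1.70 (adjusted p = 0.36).

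Among amino acid supply genes, the metabolic arm of the response, the lists differed. Of 18 aminoacyl-tRNA synthetases, which charge tRNAs, 11 were lower and none higher, with a median of -0.38, and 7 were lower without the 3 hr pair. AARS1, for alanine, read 9.62, 9.61, 9.46 and 9.38 in hypoxia, against 10.56, 10.45, 10.38 and 10.42 in tunicamycin and differed by -0.94 ± 0.08 (adjusted p = 0.000754). SARS1, for serine, differed by -0.94 ± 0.10, GARS1, for glycine, by -0.59 ± 0.03, CARS1, for cysteine, by -0.74 ± 0.16 and FARSA, a phenylalanine subunit, by -1.16 ± 0.26. These 5, the members with the largest differences, each had all hypoxia arrays below all tunicamycin arrays. Over all genes the arrays did not overlap for 22.1%, in either direction. Because the 5 have the largest differences, their lack of overlap does not describe the whole list.

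In amino acid and one-carbon synthesis 9 of 13 were lower and 1 higher, with a median of -0.34. Without the 1.5, 3 or 4.5 hr pair 6, 6 or 7 were lower. CTH, which makes cysteine from cystathionine, read 6.28, 6.70, 6.29 and 6.14 in hypoxia, against 8.42, 8.25, 8.21 and 8.65 in tunicamycin and differed by -2.03 ± 0.40 (adjusted p = 0.000598). ASNS, asparagine synthetase, read 10.64, 10.87, 10.77 and 10.75 in hypoxia, against 11.60, 11.71, 11.61 and 11.73 in tunicamycin. Its gap was alike at all times, at -0.90 ± 0.07 (adjusted p = 0.000828). GOT1, the cytosolic aspartate aminotransferase, differed by -1.22 ± 0.11, and PSPH and PSAT1 of serine synthesis by -0.82 ± 0.21 and -0.46 ± 0.14. ALDH18A1, of proline synthesis, was the member higher, at 0.28 ± 0.09, and lost its call without the 1.5, 3 or 4.5 hr pair (adjusted p 0.0747 to 0.169).

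Of 12 amino acid transporters 4 were lower and none higher: SLC7A11 (the cystine carrier, -0.61 ± 0.11), SLC1A5 (glutamine, -0.52 ± 0.19), SLC3A2 (the heavy chain shared by several carriers, -0.51 ± 0.34) and SLC7A1 (cationic amino acids, -0.34 ± 0.05). SLC3A2 and SLC7A1 lost their calls without the 1.5 or 3 hr pair, leaving 2, and without the 0 hr pair 3 transporters were higher. The median of the list, 0.03, was near that of all genes and was -0.01 after centring each array on its ribosomal protein genes.

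ATF4 with its C/EBP partners binds a composite site, written here as TGATGNAAN, and 2 promoters with it are shown because their genes behaved differently in time: ASNS kept its gap and CHAC1 lost it. ASNS lies at chr7:97872359-97872658 on the minus strand and CHAC1 at chr15:40953221-40953520 on the plus strand, where the site runs on the opposite strand; the fixed letters are in capitals.
ASNS: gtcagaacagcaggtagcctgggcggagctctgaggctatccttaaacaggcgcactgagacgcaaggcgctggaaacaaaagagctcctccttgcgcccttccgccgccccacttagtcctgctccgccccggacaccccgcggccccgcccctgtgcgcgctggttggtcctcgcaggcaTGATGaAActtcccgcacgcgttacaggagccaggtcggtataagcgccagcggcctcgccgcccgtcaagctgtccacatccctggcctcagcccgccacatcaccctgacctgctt
CHAC1: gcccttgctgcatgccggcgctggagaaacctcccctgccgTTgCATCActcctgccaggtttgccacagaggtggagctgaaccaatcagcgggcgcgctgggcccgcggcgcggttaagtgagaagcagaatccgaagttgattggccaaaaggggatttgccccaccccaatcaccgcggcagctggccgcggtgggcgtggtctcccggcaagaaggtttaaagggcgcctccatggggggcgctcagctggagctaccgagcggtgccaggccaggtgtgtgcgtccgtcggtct
Over both strands the site was found in 230 of 11556 promoters of tested genes (2.0%) and in 5 of 15 tRNA synthetase promoters (33.3%), those of AARS1, CARS1, TARS1, NARS1 and IARS1. The 5 had a median difference of -0.40 and the 10 without the site -0.36, so synthetases with and without these letters had medians close together. It was also present at GOT1, SLC3A2, SLC7A1, ATF3, HERPUD1 and PPP1R15B, the last of which lay higher in hypoxia, and at CHAC1, FGF21, HK1 and SLC38A1, none of them called.

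Nonsense-mediated decay (NMD), the surveillance pathway that the wider study addresses, had 10 of its 16 listed factors tested. Of these 1 was higher and 1 lower, near the 15.5% of all genes in each direction, with a median of -0.10. UPF1, the helicase at its core, read 8.28, 8.29, 8.35 and 8.53 in hypoxia, against 8.71, 8.65, 8.49 and 8.54 in tunicamycin. The groups overlapped and the difference of -0.23 ± 0.19 was not called (adjusted p = 0.105). SMG9 was lower, at -0.64 ± 0.35, and SMG8, its partner in the SMG1 kinase complex, higher, at 0.57 ± 0.30, and both lost their calls without the 3 hr pair (adjusted p = 0.0681 and 0.071), SMG9 also without the 4.5 hr pair (adjusted p = 0.0511).

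Of 12 stress transcripts proposed as NMD targets 7 were lower and 1 higher, with a median of -0.48. Several also stand in the lists above (ATF3, ATF4, ATF5, DDIT3, GADD45A and SLC7A11). The others called were UPP1, a uridine phosphorylase, at -1.09 ± 0.14, and NAT9, an acetyltransferase-like protein, at -0.73 ± 0.10. Of 3 tested snoRNA host transcripts 2 were lower, ZFAS1 at -0.49 ± 0.09 and EPB41L4A-AS1 at -0.86 ± 0.45, the second not called without the 3 hr pair (adjusted p = 0.0526).

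Inflammatory genes were lower in hypoxia for 6 of 12 members of the NF-kappaB list and higher for none (1 without the 1.5 hr pair). Without the 0, 1.5, 3 or 4.5 hr pair 5, 4, 4 or 5 were lower. CXCL8 (interleukin-8), a neutrophil attractant, read 8.37, 7.47, 7.76 and 7.75 in hypoxia, against 10.56, 10.59, 10.45 and 10.77 in tunicamycin. The groups lay over 2 units apart at every time and differed by -2.76 ± 0.42 (adjusted p = 0.000249), or 6.75-fold. NFKBIE, an NF-kappaB inhibitor, differed by -1.37 ± 0.51, NFKB1 by -0.54 ± 0.11 and RELB by -0.48 ± 0.16. TSLP, an epithelial cytokine outside the list, was among the 10 lowest genes of all, with 4.88, 4.52, 4.06 and 4.26 in hypoxia, against 7.61, 7.30, 7.18 and 7.87 in tunicamycin; after 0 hr its hypoxia arrays lay below the filter's 4.72. Its difference of -3.06 ± 0.40 therefore has a poorly measured low side. TSC22D3 (GILZ), a glucocorticoid-induced regulator, differed by -2.59 ± 0.39.

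At the other end, the 10 highest differences held 5 genes from none of the lists. PPFIA4, a liprin scaffold protein, read 8.65, 8.02, 8.87 and 8.74 in hypoxia, against 5.94, 5.66, 5.40 and 5.50 in tunicamycin and differed by 2.94 ± 0.50. BEND5, a BEN domain protein, differed by 2.71 ± 0.21, and KCNA1, a voltage-gated potassium channel, by 2.42 ± 0.77. PDGFRA, the platelet-derived growth factor receptor alpha, read 7.58, 7.92, 7.98 and 7.59 in hypoxia, against 5.63, 5.0, 5.12 and 4.70 in tunicamycin. It differed by 2.65 ± 0.47, with the 0 hr gap the smallest. Its 4.5 hr tunicamycin array lay below the filter's 4.72, so the gap at that time is poorly measured. DIPK2A, a secreted kinase-like protein, differed by 2.47 ± 0.62. Second probe sets of BEND5, KCNA1 and PDGFRA gave 1.12, 0.55 and 0.76.

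The second question was whether transcripts kept or lost signal at different rates once transcription was blocked. The slope difference is the hourly log2 change in hypoxia minus that in tunicamycin, given ± its standard error. It was called for 106 of 14524 genes (0.73%), 33 (0.227%) with the higher slope in hypoxia and 73 (0.503%) with the lower. Of the 33, 19 had falling fitted slopes under both stresses and 14 fell in tunicamycin but rose in hypoxia. Of the 73, 43 fell under both and 30 fell in hypoxia but rose in tunicamycin. Of all 14524 genes, 3436 fell under both, 1680 in tunicamycin alone and 2278 in hypoxia alone, and 7130 rose under both. RMA scales arrays toward a common distribution, so a slope is relative to the typical transcript of the array. The deposited values did not fully share 1 distribution, with upper quartiles of 164 to 184 over the 8 arrays. No slope call survived quantile normalization or leaving out the 3 or the 4.5 hr pair, where limma called 0 genes each (2988, 2964 and 2288 at an unadjusted p below 0.05), and 22 and 176 were called without the 0 and 1.5 hr pairs.

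Transcripts with the higher slope in hypoxia included 4 of 21 immediate early genes. EGR1, a serum-responsive transcription factor, read 11.0, 9.33, 10.07 and 10.91 in hypoxia, against 12.53, 10.43, 8.59 and 8.77 in tunicamycin. In hypoxia it regained signal after 1.5 hr, whereas in tunicamycin it fell until 3 hr, with a slope difference of 0.91 ± 0.12 per hr (adjusted p = 0.0392). DUSP1, a MAP kinase phosphatase, read 11.02, 8.21, 7.61 and 8.10 in hypoxia, against 11.78, 8.69, 6.27 and 5.88 in tunicamycin and had 0.72 ± 0.08 (adjusted p = 0.0375). IER3 and JUNB, named after their values were seen, had 0.52 ± 0.06 and 0.30 ± 0.04. By mean difference 5 immediate early genes were higher and 3 lower, and 3 higher without the 3 hr pair. In the NF-kappaB list NFKBIA, the feedback inhibitor, also named after its values were seen, had 0.48 ± 0.05.

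SESN2, given above, had fitted lines of -0.22 log2 per hr in hypoxia and -0.96 in tunicamycin, a slope difference of 0.74 ± 0.07 (adjusted p = 0.0375). For CHAC1 the lines were -0.09 in hypoxia and -0.99 in tunicamycin, and the slope difference 0.90 ± 0.11 (adjusted p = 0.0381). In hypoxia both lay nearer the filter's 4.72 than in tunicamycin at 0 hr. CDKN1B (p27), an inhibitor of the cell cycle, had 0.67 ± 0.09, SLC38A2, the amino acid transporter SNAT2, 0.50 ± 0.07, EFNA1, an ephrin ligand, 0.57 ± 0.04, VLDLR, a lipoprotein receptor, 0.36 ± 0.04 and DIPK2A 0.32 ± 0.04. DDIT4 (0.62 ± 0.12, adjusted p = 0.0689), DDIT3 (0.67 ± 0.15, adjusted p = 0.0976) and GADD45B (0.80 ± 0.15, adjusted p = 0.0689) were not called.

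Transcripts with the lower slope in hypoxia were led by genes outside the lists. RIOK2, a kinase of ribosome maturation, read 8.28, 7.69, 6.30 and 5.67 in hypoxia, against 9.16, 9.32, 9.01 and 8.83 in tunicamycin. Its tunicamycin arrays were nearly flat while its hypoxia arrays fell, a slope difference of -0.53 ± 0.05 (adjusted p = 0.0375). TIFA, an adaptor of TRAF6 signalling, read 9.49, 8.72, 7.30 and 6.69 in hypoxia, against 10.21, 10.25, 9.95 and 9.62 in tunicamycin and had -0.52 ± 0.06. ZFP36L2, which binds AU-rich mRNA, had -0.52 ± 0.07, with levels of 9.79, 9.20, 7.38 and 6.98 in hypoxia, against 9.35, 9.32, 8.84 and 8.70 in tunicamycin. RGS4, a regulator of G protein signals, fell under both stresses and had -0.51 ± 0.06, and PET117, an assembly factor of cytochrome oxidase, had -0.52 ± 0.05. Of the HIF targets RAB20, a small GTPase, read 9.38, 7.76, 7.10 and 6.62 in hypoxia, against 6.92, 6.54, 6.43 and 6.46 in tunicamycin and had -0.50 ± 0.06, and ANKRD37 had -0.40 ± 0.05, whereas VLDLR, of the same list, had 0.36 ± 0.04. RAB20 thus lay 2.46 higher in hypoxia at 0 hr and 0.16 higher at 4.5 hr. XBP1 had -0.43 ± 0.07 and was not called (adjusted p = 0.0512).

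**Figure D4:**
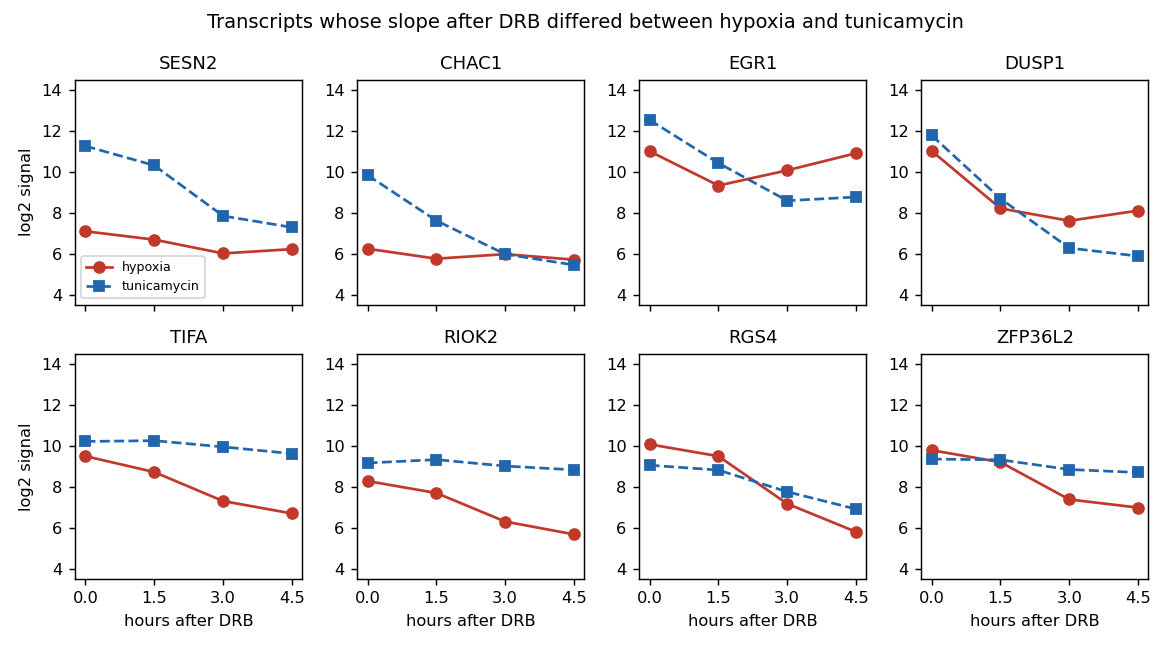
Log2 signal against hours after DRB for 4 genes with the higher slope in hypoxia (top) and 4 with the lower (bottom), with hypoxia arrays as red circles and tunicamycin arrays as blue squares, 1 array per point. SESN2, CHAC1, EGR1 and DUSP1 had slope differences of 0.74, 0.90, 0.91 and 0.72 log2 per hr, and TIFA, RIOK2, RGS4 and ZFP36L2 of -0.52, -0.53, -0.51 and -0.52.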

How the data were processed

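RNA from U2OS cells was hybridized to Affymetrix 3' expression arrays. The authors deposited 1 intensity per probe set and array, on a linear scale, made with RMA according to the processing notes of the submitters (version not given in the sources used here); RMA removes shifts shared by most transcripts, so levels and slopes are relative to the array's typical transcript. The array table held 54675 probe sets on 20 arrays. The deposited intensities of 8 arrays were taken as log2 values with no further scaling; their medians were 38.7 to 40.3 and pairwise Pearson correlations 0.958 to 0.995. No depth exists for arrays, and their number, 1 per stress and time, limits the precision.

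Gene names came from GEO's platform annotation, brought up to date with RefSeq: of the probe sets, 41097 had 1 symbol, 1801 several and 11777 none. After 6 control sets were set aside, each of 19775 genes took its brightest probe set, and the 14524 genes above the 40th percentile of mean signal (log2 4.72, intensity 26.4) were tested with limma 3.58.1 (lmFit and eBayes, R 4.3.3), with DRB time as a factor: treatment for the mean difference (3 residual degrees of freedom), and treatment by hours for the slope (2). Adjustment was by Benjamini-Hochberg at 0.05, over all genes tested. Pairing rests on the labelled DRB time. P-values measure how the paired differences of single arrays scatter over the 4 DRB times, for slopes around a line. Technical scatter cannot be told apart from changes with time in this measure. The fits were tested on simulated data. The times are not true replicates of one state: a gene whose gap changes with time has a larger SD and p.

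The members and the 33 lists (553 of 632 entries had a single-symbol probe set) were chosen with earlier results of these data known. Genes named were drawn from the 10 highest and 10 lowest mean differences of 1 sign in all pairs, 3 members per list, the 5 highest and 5 lowest slopes, 2 members per stress list by slope, and the main HIF, ER and stress response genes; other list members named for their counts, and those the text marks, were chosen after their values were seen. Promoters are RefSeq sequences of GRCh38.p14, and members without an entry were not searched. Alternatives covered pairing, a spread shared over 16 arrays, filters, probe set choice, scaling, an offset of 16, the prior and leaving out each pair. The control arrays were not used here.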

Additional observations from a re-analysis of the deposited data

Results flagged for a closer look

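In the paired differences of 5 of 170 named genes, 1 of the 4 DRB times lay far from the others, with a gap to its nearest neighbour that, as a share of the range, was past Dixon's critical value; chance marks about 1 gene in 20. The shares were 0.943 for PDGFRA, whose 0 hr difference was 1.96, and 0.920 for ALDH18A1, whose 1.5 hr difference was 0.42. They were 0.875 for FARSA (-1.54 at 4.5 hr), 0.873 for PMAIP1 (-1.30 at 0 hr) and 0.847 for GADD45A (-1.35 at 0 hr).

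Slopes after DRB differed between hypoxia and tunicamycin for 106 genes in the test of the difference itself. Among the 19 named ones, the slope in log2 per hr was higher in hypoxia by 0.91 for EGR1, 0.90 for CHAC1, 0.74 for SESN2, 0.72 for DUSP1, 0.67 for CDKN1B and 0.57 for EFNA1. It was higher by 0.52 for IER3, 0.50 for SLC38A2, 0.48 for NFKBIA, 0.36 for VLDLR, 0.32 for DIPK2A and 0.30 for JUNB. The slope difference was -0.53 for RIOK2, -0.52 for ZFP36L2, -0.52 for PET117, -0.52 for TIFA, -0.51 for RGS4, -0.50 for RAB20 and -0.40 for ANKRD37.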

How the results depend on the processing

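The mean difference was called for 4495 genes, and for 2494 with no replicate block, that is without pairing the arrays by DRB time. Leaving out 1 pair at a time gave 2010 to 5108. Across the 9 other settings the total was 3301 to 5282, within 1.5 times. Of 170 named genes 146 were called, and 98 kept call and direction in all 14 settings, 109 in those that used all pairs. Of the 146 calls, 22 were lost without the pairing and 12 with the median of a gene's probe sets. HK2 reversed with that median, to -0.26, because its probe sets disagree. Leaving out the 0, 1.5, 3 or 4.5 hr pair lost 2, 16, 26 and 10. Centring on ribosomal protein genes shifted the median of all genes to -0.05 and turned the sign of 3 of 33 list medians, those of ER-associated degradation, amino acid transporters and ribosomal proteins; quantile normalization turned none. The slope count was far less stable: 106 genes as reported, 1087 with the spread shared over 16 arrays, 468 when the filter was set at percentile 60, 550 with the offset, 1457 with a trended and robust prior, 0 with quantile normalization and 0 to 176 with 1 pair left out. With no replicate block it was 82. None of the 19 named slope calls held in all settings; the cause was not tested. With 1 array per stress and time, no error exists at a single time. Signals near the filter have an uncertain size, since calls of presence were not analysed here.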

Other observations

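Beyond the stress programmes, the machinery of protein breakdown and recycling was in part lower in hypoxia. Of 27 proteasome subunits 10 were lower in hypoxia and none higher, but the median was only -0.22, the range reached -0.50, and without the 1.5, 3 or 4.5 hr pair the count was 1. PSMC3, an ATPase of the regulatory particle, kept its call in each of these fits and differed by -0.50 ± 0.13. Of 11 autophagy genes 5 were lower and 1 higher, against 4 and 0 without the 1.5 hr pair, 2 and 0 without the 3 hr pair and 3 and 0 without the 4.5 hr pair. MAP1LC3B, the autophagosome marker LC3B, read 9.81, 9.98, 9.99 and 10.15 in hypoxia, against 10.58, 10.80, 10.98 and 11.02 in tunicamycin and differed by -0.87 ± 0.09 (adjusted p = 0.00105). ATG12, a ubiquitin-like conjugate of the pathway, differed by -0.81 ± 0.12. DNAJB1, a cytosolic HSP40 co-chaperone, differed by -1.11 ± 0.12. Of 10 cytosolic heat shock genes 7 were not called, 2 were lower and 1 higher, near the 15.5% of all genes in each direction. Lower and higher counts were 2 and 0 without the 0 hr pair, and 1 and 0 without the 1.5, 3 or 4.5 hr pair.

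Respiration and division genes differed by small amounts. Of 55 oxidative phosphorylation genes 12 were higher in hypoxia and 1 lower, with a median of 0.13, against 15.5% of all genes in each direction. Without the 1.5, 3 and 4.5 hr pair 3, 4 and 5 were higher, and none was lower. NDUFB1 and NDUFB4, accessory subunits of complex I, differed by 0.51 ± 0.10 and 0.40 ± 0.03, and COX7A2, of cytochrome oxidase, by 0.46 ± 0.09. Of 29 mitosis genes 8 were higher and 2 lower, against 8 and 5 without the 0 hr pair, 4 and 0 without the 1.5 hr pair, 3 and 0 without the 3 hr pair and 7 and 0 without the 4.5 hr pair, led by ANLN, a scaffold of the cleavage furrow, at 0.65 ± 0.12. Of 48 ribosomal protein genes 1 was called, RPS25 at 0.29 ± 0.05, and that call was lost without the 1.5, 3 or 4.5 hr pair (adjusted p 0.0713 to 0.129). Of 13 p53 targets 4 were higher and 3 lower, with SESN1, a sestrin of the p53 response, at 0.56 ± 0.15, opposite in sign to SESN2, and 2 were higher and 2 lower without the 3 hr pair. Of 10 NRF2 targets 3 were higher and 1 lower, with TXNRD1, thioredoxin reductase, at 0.46 ± 0.15, against 1 and 1 without the 1.5 or the 3 hr pair and 3 and 2 without the 0 hr pair. Of 6 brakes on mTOR 1 was higher, SESN1, and 1 lower, SESN2, near the 15.5% of all genes in each direction. Without the 0 hr pair 3 were higher, in a fit that called 2623 of 14524 genes higher.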
